A study of Mus musculus with 2 samples.

Results

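The blood cell transcription factor genes Runx1, Etv6, Fli1, Spi1, Gata2, Lmo2, Myb, Myc, Ikzf1 and Ebf1 were examined among RNAs that co-purified with chromatin in Ba/F3, a mouse hematopoietic cell line. All rows that carried these gene symbols were taken and their reads were summed per gene, which gave 30 transcript rows of 10 genes out of 48876 rows of 24117 gene symbols. Spi1 was listed under its older symbol Sfpi1 and was matched by that synonym, whereas the other 9 genes were matched by exact symbol. Ba/F3-derived cells (strain C3H in the labels) expressed either 3xFNLDD, a 3xFLAG-tagged LexA protein used as the negative control, or 3xFN-Tel-TAL, a 3xFLAG-tagged TAL protein that recognizes the telomeric repeat, and both proteins carried a nuclear localization signal. Read pairs below give the 3xFNLDD (control) value first and the 3xFN-Tel-TAL (Tel-TAL) value next. Cells of both kinds were crosslinked with formaldehyde and sonicated, the tagged protein was immunoprecipitated with an anti-FLAG antibody, and RNA from the isolate was sequenced (enChIP-RNA-Seq), with 1 library per condition. Whether the cells of either kind were a single clone was not given in the sources used here.

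The control library held 7206183 reads and the Tel-TAL library 9774844, and 11 RNAs above 1% of either library held 84.8% and 81.1% of them. The median gene had 9 control and 13 Tel-TAL reads. With 1 library per condition there was no replicate, so no difference was tested and the 95% intervals cover counting error only. They compare these 2 libraries, not the conditions. The paper gives the same number of fixed cells for both kinds. Input RNA was not analysed here, so a difference in capture, in expression between the 2 kinds of cells and in RNA per cell cannot be told apart.

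Transcription factors of these families set the identity of blood cells by binding short DNA motifs in regulatory regions, often in shared complexes. Runx1, Fli1, Gata2 and Lmo2 are known for their part in blood stem and progenitor cells, Myb and Myc for progenitor growth, Spi1 for myeloid and B lineage fate, and Ikzf1 and Ebf1 for the lymphoid and B lineages. The RNAs measured here are those of the genes, not the proteins, and their presence says nothing on where the factors bind.

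A gene was called detected with at least 10 reads in each library, which 46.2% of all 24117 listed genes reached. All listed genes had reads, 11600 of them 1 to 19 and 12517 of them 20 or more. So 46.2% is a share of genes with reads, not of every annotated gene. Of the 10 genes, 8 were detected by this rule, with Spi1 (18 and 6 reads) and Ebf1 (9 and 14 reads) as the exceptions. The same rule found 33 of 48 other hematopoietic transcription factors, and 2 of 11 transcription factors of non-hematopoietic lineages such as Myod1 of muscle and Neurod1 of neurons. These lists held 50 and 12 factors, and those without a row are left out of the counts. The 2 detected non-hematopoietic factors were Pax6 (298 and 210 reads), whose exons share 5542 nt with Elp4 on the opposite strand, and Nkx2-1 (131 and 95 reads). All 10 genes had at least 3 reads in each library, and 6 had at least 50.

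**Figure D1:**
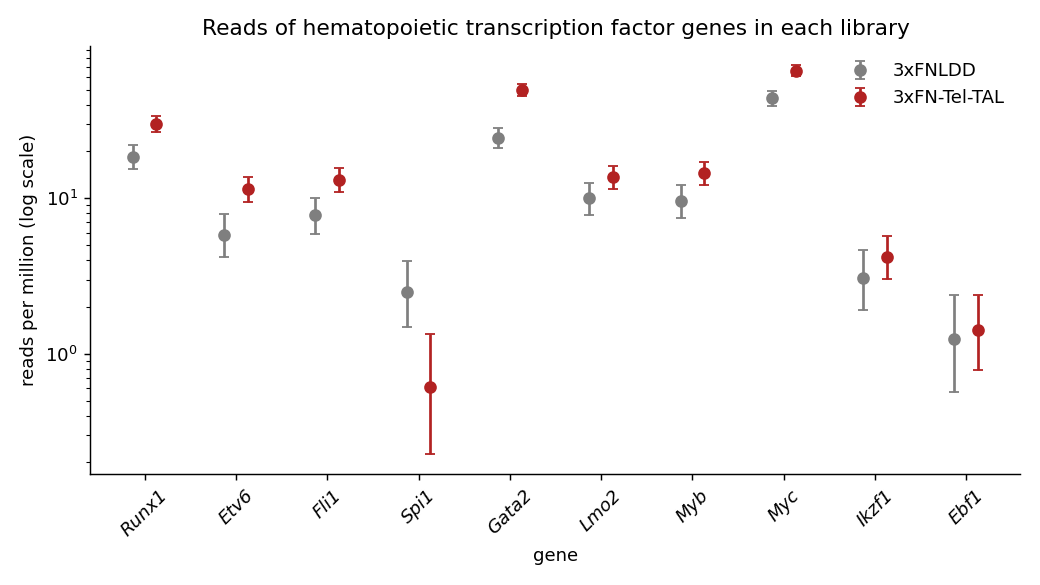
RPM, reads per 1000000 library reads (log axis), of the 10 genes in the 3xFNLDD library (grey) and the 3xFN-Tel-TAL library (red), with exact 95% Poisson intervals as bars. Myc is highest at 44.1 and 66.2 RPM, Spi1 is the gene with the lower value in 3xFN-Tel-TAL, and the intervals of Ebf1, Ikzf1 and Lmo2 overlap between libraries.

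Levels can be compared between genes only per length, and here the scale is reads per 1000000 library reads (RPM) per kb of annotated exon. In 3xFNLDD, Myc had the highest level at 16.2 RPM per kb, followed by Gata2 at 7.29 and Lmo2 at 4.62, and the 95% Poisson intervals of each were apart from the next. Myb (2.80), Runx1 (2.50) and Fli1 (2.50) followed with intervals that overlapped, then Spi1 (1.15), Etv6 (1.01) and Ikzf1 (0.54), each overlapping the next, and Ebf1 (0.13) last. The order in 3xFN-Tel-TAL was again led by Myc (24.4 RPM per kb), Gata2 (14.7) and Lmo2 (6.29), with Myb, Fli1 and Runx1 between 4.07 and 4.22, and Etv6 at 1.98. Ikzf1 (0.74), Spi1 (0.28) and Ebf1 (0.15) were lowest there, and each overlapped the next. In this order Spi1 was the seventh in the control and the ninth with Tel-TAL. Among 22823 genes with a length, the level of Myc stood at percentile 98.3 in the control and 98.7 with Tel-TAL, and that of Ebf1 at percentile 16.2 and 27.3.

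**Figure D2:**
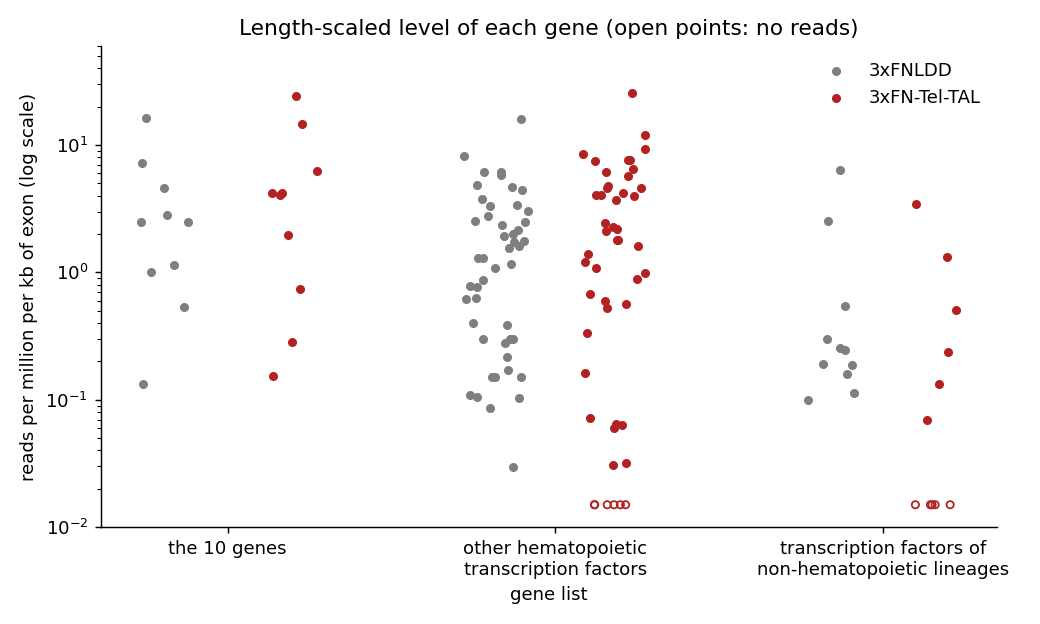
Level of each gene in RPM per kb of exon (log axis) for the 10 genes, for other hematopoietic transcription factors and for transcription factors of non-hematopoietic lineages, in 3xFNLDD (grey) and 3xFN-Tel-TAL (red), with genes without reads as open points at the bottom. The medians of the 3 lists are 2.50, 1.30 and 0.25 RPM per kb in 3xFNLDD and 4.14, 1.71 and 0.069 in 3xFN-Tel-TAL.

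The comparison of the libraries asks which RNAs were more abundant in the telomere isolate than in the control isolate. Of the 10 genes, 6 (Gata2, Etv6, Fli1, Runx1, Myb and Myc) had a Tel-TAL to control RPM ratio above 1.4, and Spi1 had a ratio below 1/1.4. The study set 1.4 for non-coding RNAs and on read counts, which are not scaled for depth, whereas it is used here on RPM. Among the 12517 genes of 20 or more reads, both libraries added, 41.1% were above 1.4 and 11.5% below 1/1.4. On unscaled read counts 9 of the 10 genes and 70.6% of all genes were above 1.4, and Spi1 and 5.12% of all genes below 1/1.4. The log2 ratio was above 0 for 9 of the 10 genes, as for 72.8% of all genes. The median log2 ratio was 0.59 over the 10 genes and 0.37 over all genes. Scaling by the trimmed mean of M values (TMM) lowered every log2 ratio by 0.37, which put the median gene at -0.0013. With TMM scaling, 2 of the 10 genes (Gata2 and Etv6) were above 1.4 and Spi1 was below 1/1.4, beside 20.4% and 22.4% of all genes.

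A reading that does not depend on scaling sets each gene against the median gene. The 95% interval lay wholly above the median gene's log2 ratio for Gata2, Etv6, Runx1 and Myc, as it did for 14% of all genes. With the deepest transcript of each gene only, this count was 3, without Myc. It lay wholly below for Spi1, as for 16.4% of all genes. For Fli1, Lmo2, Myb, Ikzf1 and Ebf1 the interval held the median gene's value, so no difference from it was detectable at this depth. Only for Gata2 did the interval lie wholly above 1.4-fold (10.1% of all genes), and only for Spi1 wholly below 1/1.4-fold (2.8%).

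**Figure D3:**
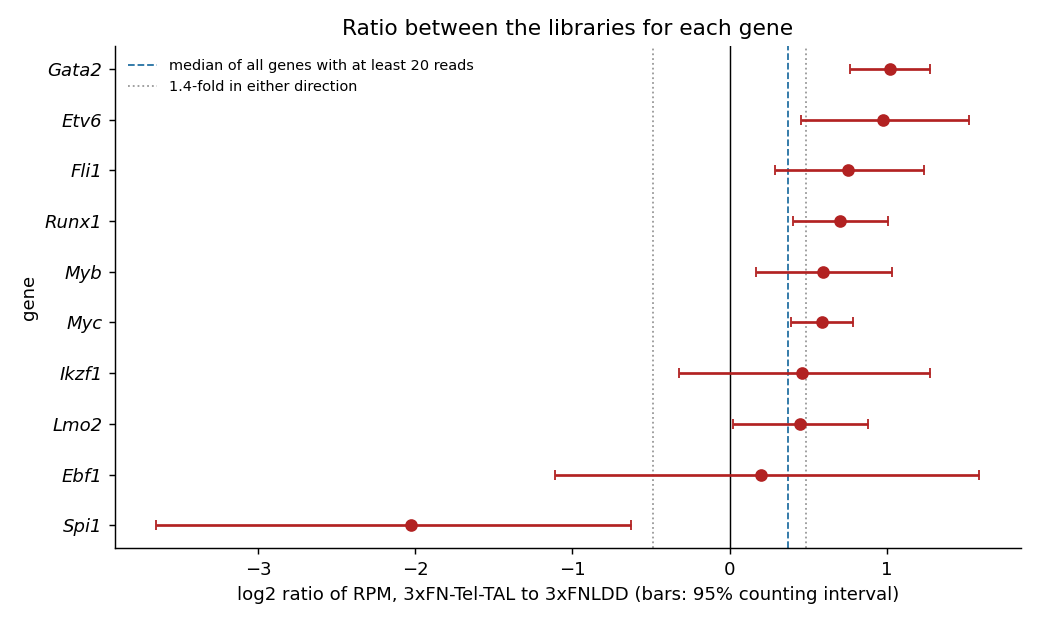
Tel-TAL RPM over control RPM (log2) for each of the 10 genes with its exact 95% counting interval, with the median of all genes with at least 20 reads (dashed, 0.37) and 1.4-fold in either direction (dotted). Gata2 is highest at 1.02, Spi1 is lowest at -2.02, and the other 8 lie between 0.20 and 0.98.

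Runx1 encodes the DNA-binding subunit of core-binding factor and is required for the first blood stem cells. It lies on the reverse strand of chromosome 16 (92601712 to 92826311 of NCBIM37, the build of all gene and exon positions here). It had 133 control and 293 Tel-TAL reads (18.5 and 30.0 RPM). The RPM was higher with Tel-TAL, and the log2 ratio was 0.70 (95% interval 0.40 to 1.01). TMM scaling gave 0.33, which is below 1.4-fold.

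Runx1 is known to be transcribed from a distal and a proximal promoter, and both of its listed transcripts could be placed, since the first 25 bases of each lie in a different RefSeq promoter window. The windows of 300 bases are shown because the read counts were split between transcripts that start in them. Capitals mark the letters TGTGGT, the RUNX motif, read on both strands, and CACGTG, an E-box that Myc and Max bind.
Runx1 distal promoter window, chr16:92826025-92826324 (reverse strand, GRCm38.p6): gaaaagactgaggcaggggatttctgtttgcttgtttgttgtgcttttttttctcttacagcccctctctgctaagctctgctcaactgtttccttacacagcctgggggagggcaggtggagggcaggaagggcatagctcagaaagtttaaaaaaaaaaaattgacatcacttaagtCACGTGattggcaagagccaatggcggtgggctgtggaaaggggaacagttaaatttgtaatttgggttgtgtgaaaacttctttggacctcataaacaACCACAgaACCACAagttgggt
Runx1 proximal promoter window, chr16:92697280-92697579 (reverse strand, GRCm38.p6): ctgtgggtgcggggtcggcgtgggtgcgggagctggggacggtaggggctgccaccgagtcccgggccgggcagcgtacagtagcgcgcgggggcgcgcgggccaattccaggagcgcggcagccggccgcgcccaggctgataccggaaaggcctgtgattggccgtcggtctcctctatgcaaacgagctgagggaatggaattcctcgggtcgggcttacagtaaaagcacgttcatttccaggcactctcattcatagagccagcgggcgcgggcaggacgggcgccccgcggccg
Of these motifs, 2 RUNX matches and 1 E-box lie in the distal window, and the proximal window holds none of these letters. The RUNX letters occur in 16.8% and the E-box in 7.15% of all 32851 promoter windows. The distal transcript ENSMUST00000023673 had 106 and 242 reads, and the log2 ratio was 0.75 (95% interval 0.42 to 1.09). The proximal transcript ENSMUST00000113956 had 27 and 51 reads, and the log2 ratio was 0.48 (95% interval -0.22 to 1.21). The difference, proximal minus distal, was -0.27 on the log2 scale (exact 95% interval -1.06 to 0.54), so none was detectable. The distal transcript held 81.7% of the gene's reads although 441 nt of its 5777 nt are its own, against 1591 nt of 6927 nt for the proximal transcript. How reads from the shared exons were assigned is not given in the sources used here, so these shares are no measure of promoter use.

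Cbfb, the subunit that stabilizes Runx1 on DNA, had 49 and 113 reads, and the log2 ratio was 0.77 (95% interval 0.27 to 1.28). Runx3 (59 and 98 reads, log2 ratio 0.29) and Runx2 (67 and 101 reads, log2 ratio 0.15) were within 1.4-fold, and their intervals, like that of Cbfb, held the median gene.

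Etv6, Fli1 and Spi1 belong to the ETS family, and their ratios here differed in sign. Etv6, a repressor needed in adult blood stem cells, lies on the forward strand of chromosome 6 (133985718 to 134220176). It had 42 control and 112 Tel-TAL reads (5.83 and 11.5 RPM), and the log2 ratio was 0.98 (95% interval 0.45 to 1.52). Fli1, an activator of stem cell and megakaryocyte genes, lies on the reverse strand of chromosome 9 (32229793 to 32348974). It had 56 control and 128 Tel-TAL reads (7.77 and 13.1 RPM), and the log2 ratio was 0.75 (95% interval 0.29 to 1.23). Both were higher in RPM with Tel-TAL, and their intervals overlap each other. With TMM scaling Etv6 stayed above 1.4-fold at 0.61, and Fli1 was at 0.38.

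Spi1, which encodes PU.1, was the gene that went the other way. It lies on the forward strand of chromosome 2 (90922547 to 90955913). It had 18 control and 6 Tel-TAL reads (2.50 and 0.61 RPM), and the log2 ratio was -2.02 (95% interval -3.65 to -0.63). This interval does not overlap that of any of the other 9 genes except Ebf1. The sign was the same with the 3 other scalings and with a pseudocount of 1, over a range from -2.39 (TMM) to -1.88 (pseudocount). Nearly all reads, 18 and 5, were on transcript ENSMUST00000002180 of 2034 nt. With 24 reads in all, Spi1 is a shallow gene, and of the 3587 genes with 20 to 49 reads, 21% had a ratio below 1/1.4. In that range 10% of genes lay below a log2 ratio of -1.02.

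Other transcription factors with few reads also had lower values in 3xFN-Tel-TAL, and so did most genes at that depth. Of all 11600 genes with 1 to 19 reads, 63.6% had a lower RPM in 3xFN-Tel-TAL, while the 3587 genes with 20 to 49 reads had a median log2 ratio of 0.24. Under 20 reads, a lower RPM was seen for 12 of 14 other hematopoietic factors and for 7 of 9 non-hematopoietic factors, whose summed reads were 35 and 20. The 2 deep non-hematopoietic factors also had lower values, with log2 ratios of -0.94 for Pax6 and -0.90 for Nkx2-1. Among the ETS relatives, Ets1 had 11 reads in 3xFNLDD and none in 3xFN-Tel-TAL, where 3 reads correspond to 0.307 RPM, and Erg had 15 and 11 reads, and the log2 ratio was -0.89 (95% interval -2.15 to 0.33). The part of read depth in the value of Spi1 was not tested.

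**Figure D4:**
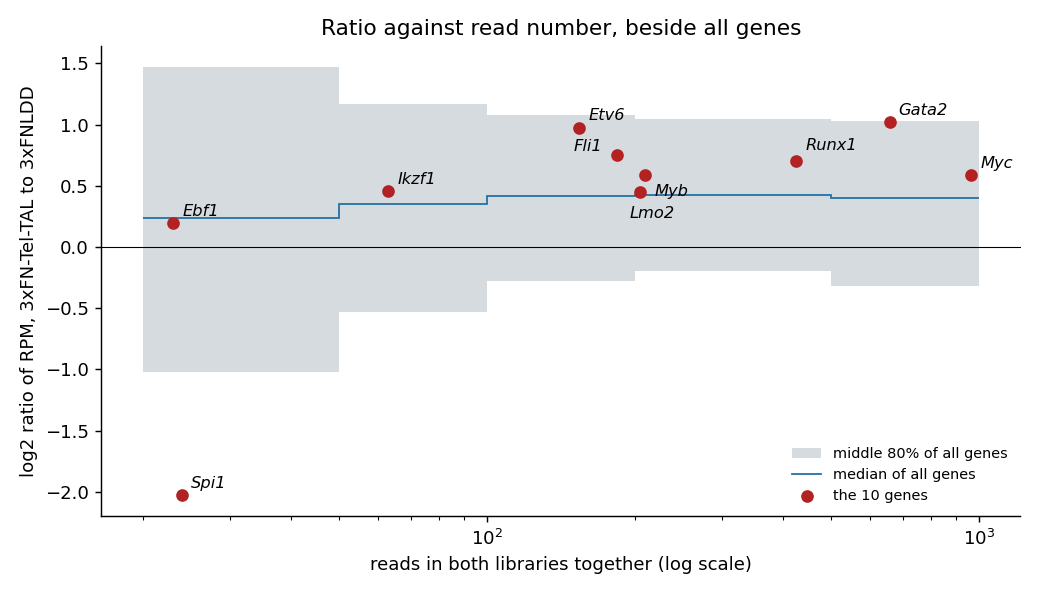
Log2 ratio of RPM against reads in both libraries together (log axis) for the 10 genes, drawn over the middle 80% (grey) and the median (blue) of all genes in 5 ranges of read number. Spi1 lies below the grey band, whose lower edge is -1.02 at 20 to 49 reads, and Gata2 lies close to its upper edge of 1.03 at 500 to 999 reads.

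Gata2, a zinc finger factor of stem cells and mast cell progenitors, had the highest ratio of the 10 genes. It lies on the forward strand of chromosome 6 (88143885 to 88157024). It had 176 control and 483 Tel-TAL reads (24.4 and 49.4 RPM), and the log2 ratio was 1.02 (95% interval 0.77 to 1.27). The RPM was 2.02-fold as high with Tel-TAL, and the ratio was above 1.4 with all 3 other scalings, from 0.65 with TMM to 0.76 with the median of ratios. With TMM scaling the lower bound was 0.40, which is below 1.4-fold.

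Both listed Gata2 transcripts carry the same coding exons behind a different first exon, of which the upstream is known for use in hematopoietic cells. They share all but 110 nt of the upstream and 218 nt of the downstream transcript. The windows are shown since the counts of the transcripts differ widely. Neither holds the RUNX letters, the E-box, the GATA motif AGATAA or the ETS motif GGAAGT on either strand, so no letters are in capitals.
Gata2 upstream promoter window, chr6:88193641-88193940 (forward strand, GRCm38.p6): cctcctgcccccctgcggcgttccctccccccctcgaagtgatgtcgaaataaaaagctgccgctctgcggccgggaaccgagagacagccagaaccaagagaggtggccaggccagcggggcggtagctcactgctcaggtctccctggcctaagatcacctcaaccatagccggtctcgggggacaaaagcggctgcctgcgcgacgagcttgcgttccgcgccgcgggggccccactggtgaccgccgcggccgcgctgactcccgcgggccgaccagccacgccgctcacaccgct
Gata2 downstream promoter window, chr6:88198414-88198713 (forward strand, GRCm38.p6): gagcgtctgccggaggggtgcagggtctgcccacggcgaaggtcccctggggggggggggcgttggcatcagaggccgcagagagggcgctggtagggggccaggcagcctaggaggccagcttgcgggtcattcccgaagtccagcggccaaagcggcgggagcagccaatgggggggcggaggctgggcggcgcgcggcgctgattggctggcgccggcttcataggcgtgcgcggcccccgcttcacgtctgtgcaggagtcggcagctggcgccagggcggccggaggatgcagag
The transcript that starts in the downstream window, ENSMUST00000015197, had 171 and 471 reads, which is 97.4% of the gene's reads. The transcript that starts in the upstream window, ENSMUST00000170089, had 5 and 12 reads. Their log2 ratios were 1.02 (95% interval 0.77 to 1.28) and 0.82 (95% interval -0.79 to 2.68), and the difference, upstream minus downstream, was -0.20 (exact 95% interval -1.83 to 1.68), so none was detectable. Because of the long shared part, the transcript of origin of the reads was not resolved.

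Telomeric repeats were looked for because the tagged TAL protein recognizes them. The telomeric letters TTAGGG (searched on both strands) are in 10.6% of all promoter windows and in none of the 10 windows of the RefSeq table used here, which matched 6 of the genes (Runx1, Gata2, Etv6, Myb, Ikzf1 and Ebf1). A run of 2 repeats occurs in 16 of 27576 listed protein-coding transcripts (0.058%) and in none of the 27 protein-coding transcripts of these genes. Windows and spliced transcripts leave out introns and distal sequence, which were not searched.

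Lmo2 is a LIM-only protein without DNA binding of its own that bridges Tal1, Ldb1 and GATA factors in a shared complex. It lies on the forward strand of chromosome 2 (103798143 to 103822035). It had 72 control and 133 Tel-TAL reads (9.99 and 13.6 RPM), and the log2 ratio was 0.45 (95% interval 0.021 to 0.88). The gene as a whole was within 1.4-fold, close to the median gene.

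The reads as assigned to the transcripts of Lmo2 gave different ratios. ENSMUST00000111139, with the most reads (56 and 73), had a log2 ratio of -0.057 (95% interval -0.58 to 0.47), whereas its other 6 transcripts together had 1.47 (95% interval 0.65 to 2.36), and these intervals do not overlap. ENSMUST00000111140 had 2 and 18 reads, and the log2 ratio was 2.73 (95% interval 0.67 to 5.88), and ENSMUST00000123437 had 4 and 18 reads, 1.73 (95% interval 0.13 to 3.75). The rest of the gene minus ENSMUST00000111139 came to 1.52 on the log2 scale (exact 95% interval 0.53 to 2.56). ENSMUST00000111140 and ENSMUST00000123437 contain a coding exon of 216 nt that ENSMUST00000111139 skips, which is printed because it separates them. The exon is also in ENSMUST00000133210 (7 and 12 reads), whose log2 ratio was 0.34 (95% interval -1.12 to 1.92). It is in ENSMUST00000111143 (2 and 7 reads) and ENSMUST00000156813 (1 and 4 reads) too.
Lmo2 skipped coding exon, chr2:103816162-103816377 (forward strand, NCBIM37): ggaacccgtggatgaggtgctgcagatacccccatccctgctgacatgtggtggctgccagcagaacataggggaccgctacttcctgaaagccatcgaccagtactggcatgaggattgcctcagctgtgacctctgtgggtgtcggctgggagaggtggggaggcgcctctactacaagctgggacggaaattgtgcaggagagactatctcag
Its length is a multiple of 3, so skipping keeps the reading frame. All exonic bases of ENSMUST00000111139 also lie in other listed transcripts of Lmo2, so apart from exon junctions no base tells its reads from theirs. The intervals of the Lmo2 transcripts take the assigned counts as given, so they do not cover the assignment of shared reads. For this reason no difference between the Lmo2 transcripts is concluded.

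Of the Lmo2 partners, Tal1 had 259 and 511 reads, and the log2 ratio was 0.54 (95% interval 0.32 to 0.76). Lyl1 (79 and 163 reads, log2 ratio 0.61) and Ldb1 (111 and 223 reads, log2 ratio 0.57) had similar ratios, though Ldb1 shares 177 nt of exon with Pprc1 on the opposite strand. Gata1, the erythroid and mast cell GATA factor, had 53 and 101 reads, and the log2 ratio was 0.49. All 4 partners had intervals that held the median gene.

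Myb, which keeps progenitors dividing, lies on the reverse strand of chromosome 10 (20844736 to 20880790). It had 69 control and 141 Tel-TAL reads (9.58 and 14.4 RPM), and the log2 ratio was 0.59 (95% interval 0.17 to 1.03). All reads were on 1 transcript of 3420 nt, and TMM scaling gave 0.22. Its relative Mybl2, a cell cycle factor, had 111 and 168 reads, and the log2 ratio was 0.16 (95% interval -0.20 to 0.52).

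Myc, a growth regulator that acts as a dimer with Max, had the most reads of the 10 genes. It lies on the forward strand of chromosome 15 (61816946 to 61821929). It had 318 control and 647 Tel-TAL reads (44.1 and 66.2 RPM), and the log2 ratio was 0.58 (95% interval 0.39 to 0.78). TMM scaling lowered it to 0.22. Transcript ENSMUST00000022971 held 88.0% of these reads (281 and 568). The short transcript ENSMUST00000159338, of which 270 nt are its own, had 36 and 65 reads, and the log2 ratio was 0.41 (95% interval -0.20 to 1.04). ENSMUST00000160009 had 0 and 7 reads, too few for a ratio.

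Max showed a larger ratio than Myc. Max had 28 and 148 reads, and the log2 ratio was 1.96 (95% interval 1.37 to 2.60), and its interval lies above that of Myc. Max had the highest ratio of the other hematopoietic factors with at least 20 reads, followed by Id1, an inhibitor of E proteins (18 and 86 reads, 1.82, 95% interval 1.07 to 2.64), and Mnt, a repressor that also pairs with Max (66 and 206 reads, 1.20, 95% interval 0.80 to 1.62).

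**Figure D5:**
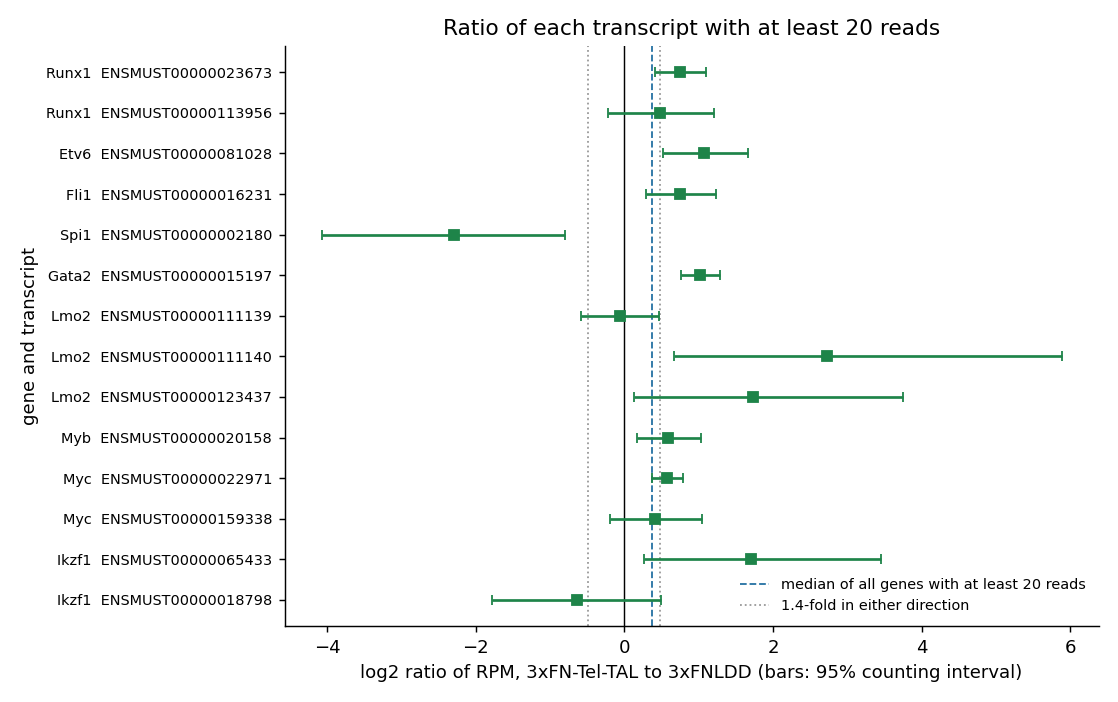
Tel-TAL RPM over control RPM (log2) for the 14 transcripts, from 9 of the genes, that had 20 or more reads when the libraries were added, with exact 95% counting intervals, the median of all genes (dashed) and 1.4-fold in either direction (dotted). The deepest Lmo2 transcript lies at -0.057 and the other Lmo2 transcripts at 1.73 and 2.73, and the Ikzf1 transcripts lie at 1.70 and -0.63.

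Ikzf1 and Ebf1, the lymphoid members, were the shallowest besides Spi1. Ikzf1, which encodes the zinc finger protein Ikaros, lies on the forward strand of chromosome 11 (11585006 to 11672929). It had 22 control and 41 Tel-TAL reads (3.05 and 4.19 RPM), and the log2 ratio was 0.46 (95% interval -0.32 to 1.28). This interval includes a ratio of 1, so no difference was detectable at this depth.

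The 2 deepest transcripts of Ikzf1 had ratios of opposite sign. ENSMUST00000065433 had 5 and 22 reads, and the log2 ratio was 1.70 (95% interval 0.26 to 3.45). ENSMUST00000018798 had 16 and 14 reads, and the log2 ratio was -0.63 (95% interval -1.78 to 0.50). The difference, the former minus the latter, was 2.29 on the log2 scale (exact 95% interval 0.41 to 4.40). This interval takes the assigned counts as given, and how shared reads were assigned is not known. The pair was also named after its values were seen, so no difference between the transcripts is concluded. The second lacks 2 coding exons, of which the longer, of 261 nt, is shown here, and it also has shorter ends. All exonic bases of the second lie in the other listed transcripts.
Ikzf1 skipped coding exon, chr11:11648314-11648574 (forward strand, NCBIM37): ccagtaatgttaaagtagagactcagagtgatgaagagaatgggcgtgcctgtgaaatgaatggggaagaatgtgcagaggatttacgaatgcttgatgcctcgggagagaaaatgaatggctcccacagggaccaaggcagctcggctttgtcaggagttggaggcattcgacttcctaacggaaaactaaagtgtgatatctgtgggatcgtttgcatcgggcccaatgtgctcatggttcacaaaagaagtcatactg
Its relatives differed in depth. Ikzf2 had 231 and 570 reads, with its log2 ratio at 0.86 (95% interval 0.64 to 1.09), wholly above the median gene, and Ikzf3 had 4 reads in 3xFNLDD and none in 3xFN-Tel-TAL.

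Ebf1, a factor that commits cells to the B lineage, lies on the forward strand of chromosome 11 (44430819 to 44821593). It had 9 control and 14 Tel-TAL reads (1.25 and 1.43 RPM), and the log2 ratio was 0.20 (95% interval -1.11 to 1.59). Of these, 2 and 0 reads were on a row that the annotation gives as a pseudogene of that name. Its level, 0.13 and 0.15 RPM per kb, lay within the range of the non-hematopoietic factors, which was 0.099 to 6.42 in 3xFNLDD and 0 to 3.43 in 3xFN-Tel-TAL. That range is set by Pax6 and Nkx2-1 at the top, and Spi1, Etv6 and Ikzf1 lay within it in both libraries too. Lmo2 (4.62), Myb (2.80), Runx1 (2.50) and Fli1 (2.50) lay within it in the control and above it with Tel-TAL. Only Myc and Gata2 lay above it in both libraries. Against the median of those factors, 0.25 and 0.069 RPM per kb, Ebf1 was lower in the control and higher with Tel-TAL, whereas the other 9 genes were higher in both. Pax5 and Tcf3, which act with Ebf1 in early B cells, had 30 and 31 reads (Pax5, log2 ratio -0.39, 95% interval -1.16 to 0.38) and 133 and 220 reads (Tcf3, log2 ratio 0.29, 95% interval -0.031 to 0.61).

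Ba/F3 is usually called a pro-B line, and 4 of 9 listed markers of the B lineage were detected, beside 46.2% of all listed genes. Of 12 B lineage markers, 9 were listed, and those detected were Cd22 (228 and 201 reads), Rag2 (25 and 70), Pax5 (30 and 31) and Blnk (29 and 45). Cd79a (0 and 2 reads), Cd79b (4 and 2), Vpreb1 (4 and 4), Igll1 (2 and 0) and Dntt (1 and 0), which define early B cells, were near 0. Of 5 listed erythroid markers, 4 were detected, with Klf1 at 42 and 71 reads, Alas2 at 19 and 71 (311 nt of its exons overlap Apex2 on the opposite strand), Epor at 23 and 42 and Hbb-b1 at 49 and 73, and Hba-a1 had 22 and 9. The globin genes have close copies among which reads can be split. Of 5 pan-leukocyte markers, 4 were listed (Ptprc, Coro1a, Laptm5 and Vav1) and all 4 were detected, with 307 and 1015 reads in all. Cd34 had no row. Detection was seen for 3 of 6 listed neutrophil and macrophage markers (Itgam, Csf3r and Csf1r, the last sharing 871 nt of exon with Hmgxb3 on the opposite strand), for 1 of 5 listed mast cell and basophil markers (Gata1) and for 1 of 6 T lineage markers (Cd8a, 15 and 16 reads).

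The wider list of hematopoietic transcription factors was read in the same way. Of 48 listed, 34 reached 20 reads, of which 20 were above 1.4, 3 below 1/1.4 and 11 between, beside 41.1% above and 11.5% below of all genes, and their median log2 ratio was 0.55. Below 1/1.4 were Bcl11a (13 and 7 reads, log2 ratio -1.33, 95% interval -2.90 to 0.10), Erg, and Stat5a (127 and 95 reads, -0.86, 95% interval -1.26 to -0.46, with 72 nt shared with Stat3 on the opposite strand). Against the median gene, 6 of the 34 had an interval wholly above and 6 wholly below, beside 14% and 16.4% of all genes. With TMM scaling 6 were above 1.4 and 6 below 1/1.4, beside 20.4% and 22.4%. The 10 genes were picked for their role with earlier results of these data known, and their counts are a description of these libraries.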

How the data were processed

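RNA from enChIP isolates of Ba/F3-derived cells was measured in 2 libraries, 1 per condition, prepared from 60 ng of RNA each per the labels. The paper gives larger amounts of purified RNA, with more from the control than from the Tel-TAL isolate. The authors deposited read counts per Ensembl transcript, not normalized. They also deposited RPM, which was recomputed here from the counts with differences of at most 4.8e-05. Per the labels, cutadapt and the build GRCm38 (mm10) were used. Aligner, annotation release and how reads shared by transcripts were assigned are not given in the sources used here, and neither is the use of strand. The kit (TruSeq RNA v2) does not mark strand, so reads of a gene and an antisense partner cannot be told apart. Etv6, Runx1 and Myb exons overlap opposite-strand RNAs by 135, 106 and 259 nt.

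Counts were summed per gene symbol. Log2 ratios of RPM carry exact 95% Clopper-Pearson intervals, and RPM and levels exact Poisson intervals. Differences between transcripts carry exact conditional intervals of the odds ratio, added after seeing the data. No molecular identifiers were used in the counts, so PCR copies count as reads and intervals cover counting error only. Ratio calls needed 20 or more reads when the libraries were added. Positions, lengths and exons came from GENCODE M1 (NCBIM37), which holds 45887 of 48876 transcripts, and promoter windows (300 bases around a start) from RefSeq (GRCm38.p6). Of 59 annotated transcripts of the 10 genes, 30 were listed. Genes of the lists without a row (Mef2c, Foxo1 and Foxa2 among the factors) were left out of the counts. Every listed gene had reads, so a missing row can mean no reads, which was not determined. Named genes were all 10 genes, their deepest transcript and any with at least 20 reads whose interval was apart from the rest of the gene, a set of partners and relatives, the 3 highest and 3 lowest ratios of the other hematopoietic factors, and detected markers. The other Lmo2, Ikzf1, Runx1, Gata2 and Myc transcripts, and the low-count markers, were named after their values were seen. Members and lists were chosen with earlier results of these data known. Software was Python 3.11.15, numpy 2.4.6, scipy 1.17.1, pandas 2.3.3, and edgeR 4.0.16 and DESeq2 1.42.0 in R 4.3.3 for scaling factors only. The computation was tested on simulated data. Alternatives were other scalings, minimums, thresholds, a pseudocount of 1 and the deepest transcript only.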

Additional observations from a re-analysis of the deposited data

How the results depend on the processing

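No paired analysis was possible because each condition had 1 library, and leaving out a library would leave no comparison. The main counts above 1.4 and below 1/1.4 were 6 and 1 for the 10 genes, 20 and 3 for the other hematopoietic factors, and 5148 and 1435 for all genes. The counts above were 2, 6 and 2555 with TMM scaling, 2, 7 and 2834 with totals without RNAs above 1%, 3, 10 and 3199 with median-of-ratios scaling, 1, 5 and 1881 at a threshold of 2, and 1, 6 and 1260 with the interval past 1.4. The counts below for the 2 wider groups were 6 and 2810, 6 and 2553, 6 and 2273, 1 and 571, and 0 and 351 in the same order. A minimum of 50 reads gave 1 and 680, and 1 read or more in each library gave 8 and 3600. On unscaled read counts, added after seeing the data, the counts above were 9, 27 and 8842, and those below were 1, 1 and 641. Every scaling shifts all ratios alike, by -0.37 for TMM, -0.32 without RNAs above 1% and -0.26 for the median of ratios.

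For the 10 genes, the count below was 0 with at least 50 reads or with exact symbols only, which both leave out Spi1, and 2 with the deepest transcript only, which adds Ikzf1 at -0.63. Lmo2 was at -0.057 in that setting. The log2 ratio of Ebf1 turned to -0.17 with TMM, -0.12 without RNAs above 1% and -0.061 with the median of ratios. It was 0.56 without its pseudogene row, which put Ebf1 above 1.4 and made the count above 7. This setting was added after seeing the data, as was exact symbols. Under the 3 scalings, the deepest transcript and the pseudocount, 6 genes (Runx1, Etv6, Fli1, Gata2, Myb and Myc) kept a positive sign and Spi1 a negative sign. Detection was 8 in the main setting and 6 to 10 otherwise. Depth limits Spi1, Ebf1 and Ikzf1 most, with 24, 23 and 63 reads in all.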

Other observations

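Beyond the partners described, the deepest of the other hematopoietic transcription factors was Zfpm1 (FOG-1), the cofactor of GATA factors, with 392 and 853 reads and a log2 ratio of 0.68 (95% interval 0.51 to 0.86), named after its values were seen. Its level of 16.1 and 25.8 RPM per kb was close to that of Myc. Nfe2, an erythroid and megakaryocyte factor, had 125 and 246 reads (log2 ratio 0.54), and Gfi1b of the same lineages had 33 and 73 (0.71), whereas its relative Gfi1 had 8 and 2. Of the myeloid factors, Cebpa had 2 and 0 reads, Irf8 had 7 and 2 and Cebpb had 3 and 13. These genes were picked after seeing the data and are given as values only. Among the pan-leukocyte markers, Laptm5 had 192 and 791 reads, and the log2 ratio was 1.60 (95% interval 1.37 to 1.84), higher than any of the 10 genes.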
